A study of Homo sapiens with 4 samples.

Results

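The NIBAN family comprises 3 human genes, NIBAN1, NIBAN2 and NIBAN3, formerly named FAM129A, FAM129B and FAM129C. Each was represented by 1 probe set that carried a single gene symbol, so 3 of the 18417 genes with such a probe set are described. The family was chosen by the log2 difference between LY101-4B and vehicle on these 4 arrays, in which NIBAN1 had the largest rise of all probe sets. The members' values are given as a description, without a test.

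Transcript levels were measured in MiaPaCa2, a human pancreatic ductal adenocarcinoma cell line, on 1-colour Human Gene 1.0 ST arrays. In 1 group, 2 cultures received LY101-4B, which the series names as an inhibitor of E2F, the transcription factor family that drives S-phase entry, at 50 µM for 24 h. In the other, 2 cultures received vehicle for 24 h. Replicates are described as biological, all from this 1 line, and no batch is labelled. The treatment protocol text of the same samples names LY101-4D at 25 µM instead. The compound and dose of the titles, agent labels and design text were used here. Values are log2 RMA values, a background-corrected and quantile-normalised summary of many probes along a transcript. They compare 1 probe set between arrays, not 1 gene with another.

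The array medians lay between 5.88 and 5.97 log2 units, and the median difference between LY101-4B and vehicle over the 21214 tested probe sets was 0.01. Probe sets for the simple epithelial keratins KRT8 and KRT18 and for vimentin (VIM) were bright, with group means of 11.9 and 12.8 for KRT8, 12.4 and 12.9 for KRT18 and 12.5 and 12.6 for VIM in LY101-4B and vehicle cells. The epithelial adhesion genes CDH1 (4.58 and 4.49) and EPCAM (3.88 and 3.94), which mark well-differentiated epithelium, were dim in both. The cadherin gene CDH2 (4.69 and 4.80) was dim too, and the keratin gene KRT7 (6.08 and 5.87) lay near the array medians. The keratin gene KRT19 (9.13 and 9.22) lay well above them. PRSS1 (4.20 and 4.34), CPA1 (5.79 and 5.73), CEL (5.65 and 5.57), GCG (3.82 and 3.71) and SST (5.60 and 5.44) lay below them. All of these genes except KRT8 and KRT18 were named after their values were seen, and such levels do not rank 1 gene against another. KRT8 and KRT18 fell under LY101-4B (by 0.84 ± 0.10 and 0.57 ± 0.09 log2 units, SE; limma adjusted p 0.0037 and 0.0106), and the KRT18 call was lost without either vehicle array (adjusted p 0.0983 and 0.0527). The other KRT18 probe set was also called lower (-0.47, limma adjusted p 0.0165). KRT8 and KRT18 were the only 2 of 13 measured identity genes called, and 10.5% of all tested probe sets were called lower, so this count was near the background. None of the 13 was called higher by limma, against 9.1% of all tested probe sets, nor at an unadjusted p under 0.05 (0).

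NIBAN proteins are cytoplasmic proteins with a pleckstrin homology domain near the amino terminus. NIBAN1 was first described in renal tumours of a rat strain with a defective Tsc2 gene. It is induced when the endoplasmic reticulum or the supply of nutrients is stressed, and its loss alters phosphorylation of the translation regulators eIF2alpha (EIF2S1), RPS6KB1 and EIF4EBP1. AKT can phosphorylate NIBAN1, which then binds nucleophosmin (NPM1) and leaves MDM2 free to act on p53. NIBAN2, also called MINERVA, is a substrate of the BRAF, MEK and ERK cascade in melanoma cells and can bind KEAP1, the adaptor that targets the antioxidant factor NRF2 for degradation. NIBAN3, also called BCNP1, is a gene of the B-lymphocyte lineage.

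The 3 genes lie on different chromosomes, and the 250 bases upstream of an annotated start are shown for each, because NIBAN1 alone among them stood far apart between the groups and the upstream sequence is where the genes can be compared. The sequences are from RefSeq, build GRCh38.p14, written 5′ to 3′ on the strand of the gene. They cover chr1:184974509-184974758 on the minus strand, chr9:127579032-127579281 on the minus strand and chr19:17523051-17523300 on the plus strand. Capitals mark bases that matched any of 7 searched motifs, described after the sequences.
NIBAN1: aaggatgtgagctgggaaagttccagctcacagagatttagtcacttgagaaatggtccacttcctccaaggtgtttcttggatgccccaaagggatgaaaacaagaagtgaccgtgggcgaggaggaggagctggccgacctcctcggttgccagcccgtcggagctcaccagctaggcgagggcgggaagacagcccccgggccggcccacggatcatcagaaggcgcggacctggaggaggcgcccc
NIBAN2: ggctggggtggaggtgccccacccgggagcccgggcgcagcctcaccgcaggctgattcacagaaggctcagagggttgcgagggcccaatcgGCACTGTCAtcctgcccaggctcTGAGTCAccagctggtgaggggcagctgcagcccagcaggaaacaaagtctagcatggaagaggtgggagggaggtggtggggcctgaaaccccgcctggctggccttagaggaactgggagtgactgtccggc
NIBAN3: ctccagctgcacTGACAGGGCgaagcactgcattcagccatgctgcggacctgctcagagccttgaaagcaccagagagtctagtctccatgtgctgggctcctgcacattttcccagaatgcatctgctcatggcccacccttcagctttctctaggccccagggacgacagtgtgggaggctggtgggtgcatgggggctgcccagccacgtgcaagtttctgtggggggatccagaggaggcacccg

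The motifs, searched on both strands, were the C/EBP-ATF composite element bound by ATF4 and CHOP (TGATGNAA), the ATF6 endoplasmic reticulum stress element, the CRE-like core of ATF6 and XBP1 sites (TGACGTG), the AP-1 site (TGAGTCA), the core of the antioxidant response element (TGACNNNGC) and 2 forms of the E2F site (TTTCCCGC and TTTGGCGC). The AP-1 site can lie inside a longer antioxidant element, and the stress elements can overlap CRE-like cores. The NIBAN1 window held none of the 7. Of all 35093 RefSeq windows of the same length, 20.0% held at least 1, so a window without a match is the usual case and says only that these letters are not in these 250 bases. The NIBAN2 window held an AP-1 site that starts 134 bases before the gene start, a motif present in 4.20% of windows, and an antioxidant core on the opposite strand that starts 157 bases before it, present in 10.9%. The NIBAN3 window held an antioxidant core 238 bases before the start, and 2 further NIBAN3 starts, which lie 2 bases apart and share nearly all their sequence, both held 1 further core, the same one, at 25 and 27 bases before them. The NIBAN1 window was 61.2% G and C with 14 CpG dinucleotides, the NIBAN2 window 66.0% with 8, and the NIBAN3 window shown 60.8% with 5, against medians over all windows of 58.0% and 11. The windows of the other NIBAN3 starts were 65.2% and 64.8% G and C with 10 CpG each.

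The same search was run on the stress lists, counting a gene once where any of its windows matched. The ATF6 stress element, found for 0.0916% of all 27305 genes with a window, lay upstream of 4 of 16 genes of the IRE1 and ATF6 list, namely CRELD2, HSP90B1, HSPA5 and XBP1. The CRE-like core, found for 2.05% of genes, lay upstream of 0 of these 16. The C/EBP-ATF element, found for 3.89% of genes, lay upstream of 3 of 19 genes of the eIF2alpha and ATF4 list, namely ATF3, CEBPG and PPP1R15B, and of 1 of the 16, HERPUD1. It lay upstream of 1 of 16 AKT and mTORC1, 1 of 14 EGFR, 1 of 12 B-lineage and 1 of 10 identity genes. In the KEAP1 and the NPM1 lists it lay upstream of 0 of 14 and 0 of 8. The antioxidant core, found for 13.2% of genes, lay upstream of 5 of 14 genes of the KEAP1 and NRF2 list. It also lay upstream of 4 of 16 AKT and mTORC1 and 2 of 8 NPM1 genes, and of 0 of 10 identity genes. The motifs and the lists were chosen around the same pathways, so matches of a motif in the list of its own pathway are no independent result. These are letter matches and not measured binding.

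NIBAN1 had log2 values of 10.02 and 10.23 in the LY101-4B arrays, against 5.91 and 5.95 in the vehicle arrays. Both LY101-4B values lay over 4 units above both vehicle values, with a gap of 4.06 between the nearest arrays of the groups. The mean was 10.12 ± 0.15 with LY101-4B and 5.93 ± 0.03 with vehicle (SD, n = 2 each), a difference of 4.19 log2 units or 18.3-fold. The 4 pairings of a LY101-4B with a vehicle array gave differences from 4.06 to 4.32, which is 16.7-fold to 20.0-fold. In the pairings with vehicle replicate 1 NIBAN1 ranked 1 among all 21214 probe sets, and in those with vehicle replicate 2 it ranked 2. Its vehicle values were close to the array medians, and in the absence of detection calls their distance from background is unknown, which leaves the fold uncertain.

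NIBAN2 had log2 values of 8.82 and 8.84 in the LY101-4B arrays, against 9.23 and 9.15 in the vehicle arrays. The LY101-4B values were the lower ones and the groups did not overlap. The mean was 8.83 ± 0.02 with LY101-4B and 9.19 ± 0.06 with vehicle (SD, n = 2 each), a difference of -0.36 log2 units or 1.29-fold lower. The distance between the nearest arrays of the groups was 0.31, against 0.03 between the LY101-4B replicates and 0.08 between the vehicle replicates. Of the tested probe sets 22.7% had a larger absolute difference, and the quartiles of all differences were -0.17 and 0.16. The NIBAN2 difference moved with the scaling, to -0.42 with each array centred on its median and to -0.29 with cyclic loess.

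NIBAN3 had log2 values of 5.65 and 5.19 in the LY101-4B arrays, against 5.42 and 5.28 in the vehicle arrays. The LY101-4B arrays were the highest and the lowest of the 4, so the groups overlapped. The mean was 5.42 ± 0.33 with LY101-4B and 5.35 ± 0.10 with vehicle (SD, n = 2 each), a difference of 0.07 that was smaller than the spread between replicates. The 4 pairings ran from -0.23 to 0.37, with both signs. The replicate gap of NIBAN3 under LY101-4B was 0.46, and 95.3% of probe sets had a smaller one. All 4 values lay below the array medians, and whether they were above background is not known.

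**Figure D1:**
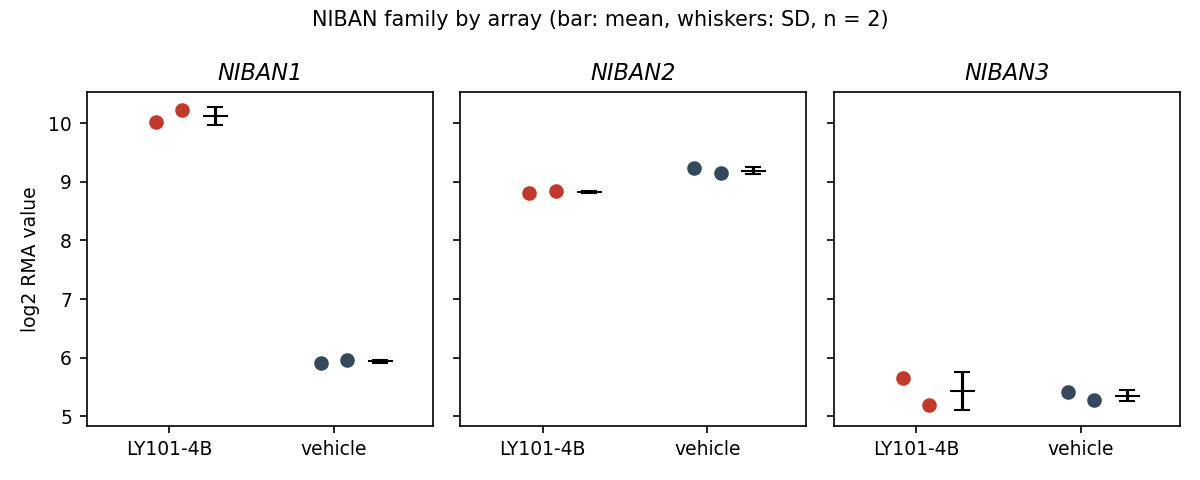
Log2 RMA values (vertical axis) of NIBAN1, NIBAN2 and NIBAN3 in the 2 LY101-4B and 2 vehicle arrays, 1 point per array, with the group mean and SD beside the points. NIBAN1 lay 4.19 units higher with LY101-4B, NIBAN2 differed by -0.36, and the NIBAN3 groups overlapped; levels are not comparable between genes.

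The groups did not overlap for 2 of the 3 members, NIBAN1 and NIBAN2, and this held for 58.0% of all tested probe sets. NIBAN1 stood at the upper end, with GDF15, a stress-induced cytokine, next at 4.01 log2 units and the autophagy gene WIPI1 at 3.59. NIBAN3 stood near the middle, with 38.3% of probe sets showing a larger rise. NIBAN2 stood in the lower part, with 87.9% of probe sets above it.

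**Figure D2:**
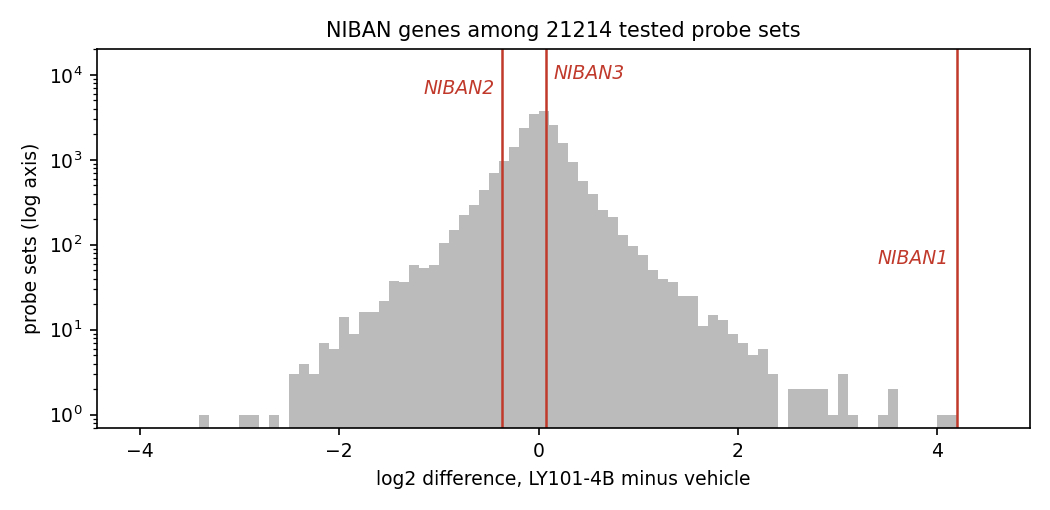
Number of probe sets (vertical log axis) by log2 difference, LY101-4B minus vehicle (horizontal axis, bins of 0.1), over the 21214 tested probe sets, with the 3 NIBAN genes as vertical lines. NIBAN1 lies at the upper end at 4.19, NIBAN3 at 0.07 near the median of 0.01, and NIBAN2 at -0.36.

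The genes with the profile most like NIBAN1 were sought by Euclidean distance over the 4 arrays, after each gene was centred on its own mean. With 4 arrays in 2 groups, this measure mostly ranks genes by the size of the difference. The 5 nearest genes were GDF15 (distance 0.38 log2 units), DDIT3 (0.63), the gene of the stress-induced transcription factor CHOP, WIPI1 (0.63), SLFN5 of the Schlafen family (0.76) and the pseudogene NMRAL2P (1.06). Of the 3 with a promoter window, 0 held the C/EBP-ATF element and 1, DDIT3, an AP-1 site. GDF15 had 9.42 and 9.55 in the LY101-4B arrays, against 5.68 and 5.26 in the vehicle arrays, so its vehicle arrays were farther apart than those of NIBAN1. DDIT3 had 10.81 and 10.95 with LY101-4B, against 7.29 and 7.35 with vehicle. In both genes, as in NIBAN1, every LY101-4B value lay over 3 units above every vehicle value.

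**Figure D3:**
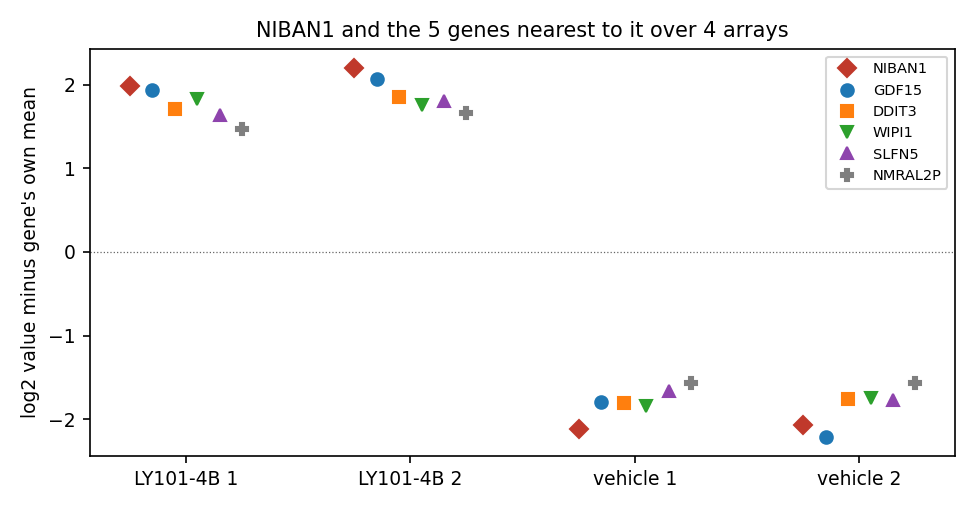
Log2 values minus each gene's own mean over the 4 arrays (vertical axis) for NIBAN1 and the 5 genes nearest to it, by array (horizontal axis), 1 point per gene and array. NIBAN1 has the widest separation between LY101-4B and vehicle arrays, and GDF15, the nearest gene at a distance of 0.38, the lowest point in vehicle replicate 2.

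Neighbouring genes on the chromosome were compared with each member, taking the 2 closest protein-coding genes on either side. Of 12 such genes, 9 had a probe set analysed here. Limma called 1 of them higher and 1 lower, against 9.1% and 10.5% of all tested probe sets, and 7 were not called (differences from -0.10 to 0.21, adjusted p 0.225 to 0.958). Beside NIBAN1, EDEM3, which encodes a mannosidase-like factor of endoplasmic reticulum-associated degradation, had 9.03 and 9.16 in the LY101-4B arrays, against 8.40 and 8.60 in the vehicle arrays. It rose by 0.60 ± 0.11 log2 units (SE; limma adjusted p 0.016), and the call was lost without vehicle replicate 1 (adjusted p 0.114) or LY101-4B replicate 2 (0.0511) and over all rows of the table (0.0577). The other measured neighbours of NIBAN1, C1orf21 (-0.10 ± 0.17) and the tRNA methyltransferase-like gene TRMT1L (-0.05 ± 0.11), did not pass. The NIBAN2 neighbours LRSAM1 (0.21 ± 0.10), a ubiquitin ligase gene, and RPL12 (0.15 ± 0.09), a ribosomal protein gene, did not pass either, nor did the 3 other RPL12 probe sets (0.18 to 0.43). Next to NIBAN3, COLGALT1, a collagen galactosyltransferase gene, fell by 0.63 ± 0.09 log2 units (limma adjusted p 0.0084), a call lost without either vehicle array (adjusted p 0.0678 and 0.055). SLC27A1, PGLS and UNC13A did not pass.

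**Figure D4:**
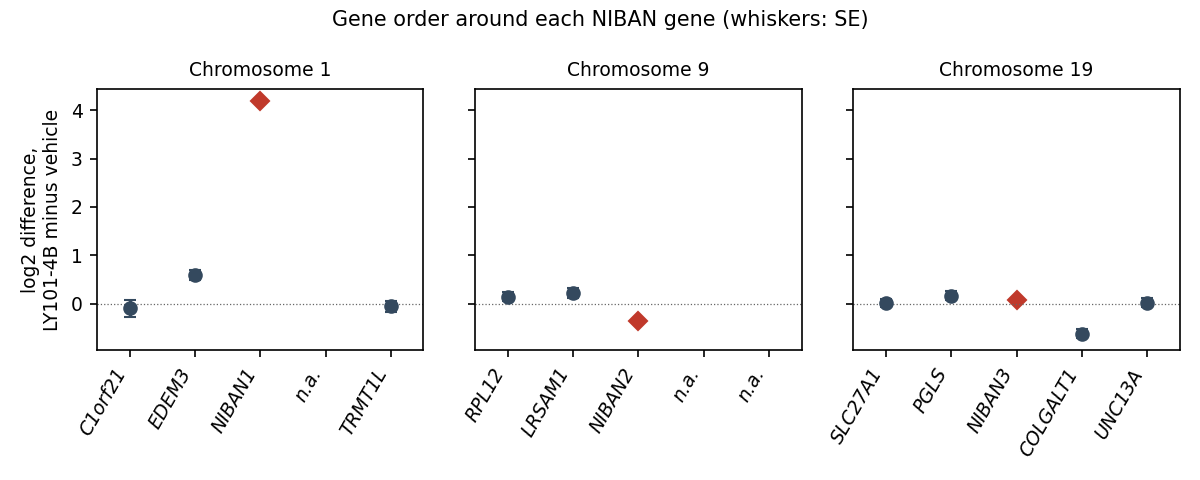
Log2 difference, LY101-4B minus vehicle (vertical axis), of each NIBAN gene (diamond) and of its 2 nearest protein-coding genes on either side in gene order (circles, whiskers show the SE of limma; n.a., not analysed here). NIBAN1 at 4.19 stands above its measured neighbours, which lie between -0.10 and 0.60.

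Genes of the eIF2alpha kinase and ATF4 arm, the stress pathway in which NIBAN1 has been placed, moved in part. Of 21 measured genes 10 rose, 3 fell and 8 did not pass, where 9.1% of all tested probe sets were called higher and 10.5% lower, so the number that fell was near the background. The list median was 0.10 log2 units against 0.00 over all genes. The 10 were the sensor kinase gene EIF2AK3, the transcription factor genes ATF4, ATF3, DDIT3, CEBPB and CEBPG, and the feedback genes TRIB3, PPP1R15A, PPP1R15B and DNAJC3. The PPP1R15B call was lost without either vehicle array (adjusted p 0.109 and 0.0504). DDIT3 rose 11.8-fold (limma adjusted p 0.0003). TRIB3, which encodes a pseudokinase that restrains ATF4 and AKT, had 9.15 and 9.36 in the LY101-4B arrays, against 7.10 and 6.82 in the vehicle arrays, a rise of 2.29 ± 0.13 (SE; limma adjusted p 0.0007). ATF3 had 7.23 and 7.38 with LY101-4B, against 5.46 and 5.49 with vehicle, a rise of 1.83 ± 0.09 (limma adjusted p 0.0006).

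EIF2S1, the eIF2alpha subunit whose phosphorylation NIBAN1 influences, was among the 3 that fell. It had 10.36 and 10.50 in the LY101-4B arrays, against 10.83 and 10.83 in the vehicle arrays, a difference of -0.40 ± 0.09 (SE; limma adjusted p 0.0343). The eIF2B exchange factor subunits EIF2B1 (-0.68 ± 0.11, limma adjusted p 0.0095) and EIF2B3 (-0.62 ± 0.11, limma adjusted p 0.0146) fell as well. All 3 of these calls were lost without vehicle replicate 2, at adjusted p 0.192, 0.0666 and 0.0984. Those of EIF2S1 and EIF2B3 were also lost without vehicle replicate 1 (0.197 and 0.0547), and that of EIF2S1 without LY101-4B replicate 1 (0.0826). EIF2S1 was named after its value was seen, as were the genes of the 10 risers beyond DDIT3, TRIB3 and ATF3. For the other arms of the unfolded protein response, 15 genes of the IRE1 and ATF6 list were measured. Of these 14 rose, 0 fell by limma (0 also at an unadjusted p under 0.05) and 1 did not pass, with a median of 1.12. Over all tested probe sets 9.1% were called higher and 10.5% lower. The risers were led by the co-chaperone gene DNAJB9 (2.82 ± 0.11), the degradation factor gene HERPUD1 (2.34 ± 0.09) and SEL1L (1.83 ± 0.12), a scaffold of the same degradation machinery. Their limma adjusted p lay between 0.0004 and 0.0009.

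Genes of AKT, mTORC1 and cap-dependent translation, whose products lie on both sides of NIBAN1, held 1 riser and 3 fallers among 18 measured, close to the shares over all tested probe sets (9.1% higher and 10.5% lower), and 14 were not called. The list median was -0.08. EIF4EBP1, an inhibitor of cap-dependent translation whose phosphorylation is altered by NIBAN1 loss, had 9.44 and 9.19 in the LY101-4B arrays. The vehicle arrays had 8.69 and 8.75, so EIF4EBP1 rose by 0.59 ± 0.11 (SE, limma adjusted p 0.0186). AKT1 (-0.50 ± 0.08, limma adjusted p 0.0125), AKT2 (-0.48 ± 0.10, limma adjusted p 0.0265) and the scaffold EIF4G1 (-0.44 ± 0.09, limma adjusted p 0.0188), named after its value was seen, fell. Each of these 4 calls was lost without either vehicle array, at adjusted p from 0.0812 to 0.162, and those of AKT2 and EIF4G1 also without LY101-4B replicate 1 (0.0655 and 0.0514). In the list of NPM1, MDM2 and p53 regulators 3 of 9 rose and 0 fell by limma (1 at an unadjusted p under 0.05). The shares over all tested probe sets were 9.1% and 10.5%, and the list median was 0.17. MDM2, the ubiquitin ligase of p53, had 9.94 and 10.11 with LY101-4B, against 8.59 and 8.67 with vehicle, a rise of 1.39 ± 0.10 (limma adjusted p 0.0011). Its relative MDM4 rose by 0.96 ± 0.12 (limma adjusted p 0.0055) and the CDK inhibitor gene CDKN1A by 0.70 ± 0.12 (limma adjusted p 0.0147), a CDKN1A call lost without either vehicle array (adjusted p 0.0551 and 0.0817). The probe set used for NPM1, named after its value was seen, differed by -0.20 ± 0.09 and did not pass. Of its 3 other probe sets, 2 did not pass (-0.23 and -0.24) and 1 was called lower (-0.44, limma adjusted p 0.0266).

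For NIBAN2, the EGFR, RAS and ERK list had 2 of 14 measured genes called higher, 0 lower by limma (1 at an unadjusted p under 0.05) and 12 not called, near the 9.1% called higher over all tested probe sets, with a median of -0.02. The called genes were the ERK phosphatase genes DUSP6 (0.69 ± 0.18, limma adjusted p 0.0491) and DUSP5 (0.42 ± 0.10, limma adjusted p 0.0349), and leaving out either vehicle array lost both calls (adjusted p 0.118 to 0.19), as did leaving out LY101-4B replicate 2 (0.055 and 0.069). DUSP6 also missed the threshold with median centring (0.0567), cyclic loess (0.0692) and a robust prior (0.0521). In the KEAP1 and NRF2 list 10 of 16 rose, 2 fell and 4 did not pass, with a median of 0.55. Over all tested probe sets 9.1% were called higher and 10.5% lower, so the number that fell was near the background. SLC7A11, the cystine transporter gene, had 10.25 and 10.40 in the LY101-4B arrays, against 7.31 and 7.50 in the vehicle arrays. The haem oxygenase gene HMOX1 rose by 2.59 ± 0.16 and the autophagy receptor gene SQSTM1, whose product also binds KEAP1, by 1.99 ± 0.08, with limma adjusted p of 0.0008 and 0.0004. CUL3 (-0.59 ± 0.09) and RBX1 (-0.56 ± 0.09), the ligase subunits that work with KEAP1, fell (limma adjusted p 0.0107 and 0.0093), and leaving out either vehicle array lost these calls (adjusted p 0.0536 to 0.0899). KEAP1 itself, named after its value was seen, differed by -0.16 ± 0.10 and did not pass.

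For NIBAN3, none of the 18 measured B-lineage markers was called by limma (2 were higher and 0 lower at an unadjusted p under 0.05), with a median of 0.03. Over all tested probe sets 9.1% were called higher and 10.5% lower. The markers with the smallest p were FCER2 (0.25 ± 0.08, limma adjusted p 0.1) and the lectin gene CD22 (0.41 ± 0.15, limma adjusted p 0.123). The summed linear level of the 18 was 855 and 846 in the LY101-4B arrays, against 833 and 800.0 in the vehicle arrays, and no marker exceeded 7.46 log2 units on any array. When limma was fitted and adjusted over all rows of the table instead of the annotated ones, some list calls were lost. Among the list genes named above these were EIF2S1 (adjusted p 0.0907), EIF2B3 (0.0546), AKT2 (0.079), EIF4EBP1 (0.0646), EIF4G1 (0.0587), CDKN1A (0.0563), DUSP5 (0.0933) and DUSP6 (0.13). Lost as well were those of MBTPS1 (0.0959), NFE2L2 (0.0769), MAFF (0.0807) and NQO1 (0.0849), list genes not named above.

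**Figure D5:**
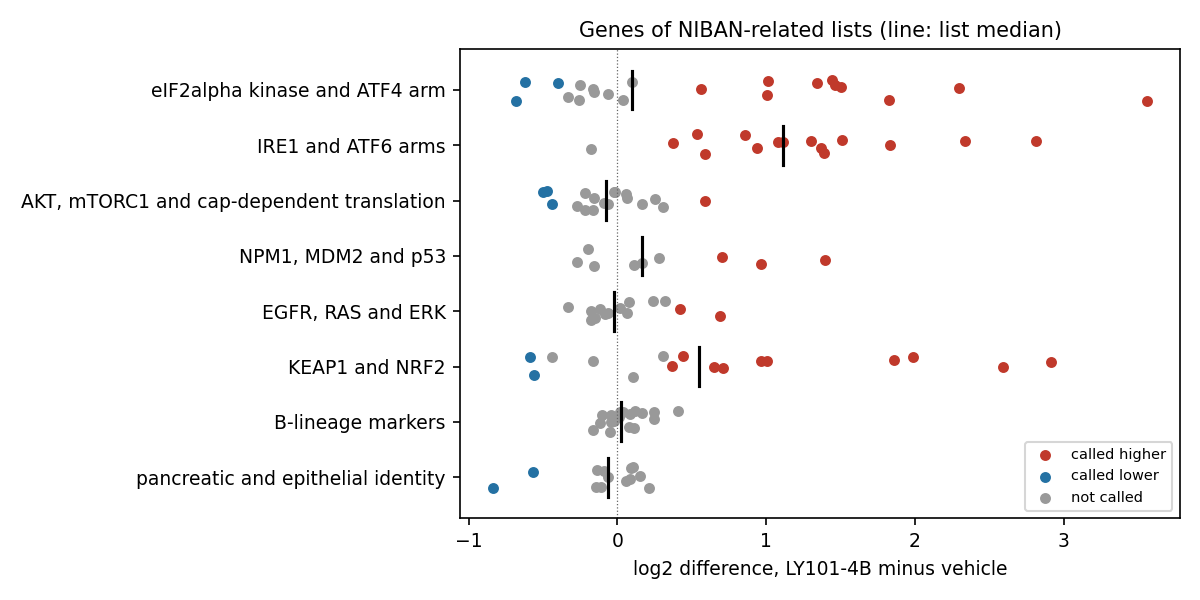
Log2 difference, LY101-4B minus vehicle (horizontal axis), of every measured gene in the 8 lists, 1 point per gene, coloured by the limma call, with the list median as a black line. Rises up to 3.56 stand in the stress lists and up to 2.92 in the KEAP1 and NRF2 list, whereas the B-lineage markers lie between -0.16 and 0.41.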

How the data were processed

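Expression was measured in 2 LY101-4B and 2 vehicle samples. The authors deposited log2 values for 33297 probe sets, made with RMA per the submitters' processing notes; its version and filters: not given in the sources used here. Per the labels' protocols, RNA was biotin-labelled with a FlashTag kit. RMA aligns the arrays' distributions, so a change is relative to most other probe sets, and small signals are compressed. Of the rows, 19460 had 1 gene symbol in the platform annotation, 1754 several and 12083 none; 0 columns were left unmapped. The 21214 with a symbol were fitted with limma 3.58.1 in R 4.3.3 (treatment only, 2-sided, Benjamini-Hochberg over all of them, threshold 0.05), after the fit was tested on simulated data. The probe set with the highest mean stood for a gene. The NIBAN genes, the 8 gene lists and the tests were chosen with earlier results of these data known, and the motifs after the promoters were seen. Named are the members, up to 3 risers and 2 fallers of each list (or the 2 smallest p where none was called), 2 neighbours on each side, and the 5 genes nearest to NIBAN1; others are marked. Gene order and promoters came from RefSeq (GRCh38.p14). The number of arrays limits the precision. Limma drew each variance towards that of the other probe sets, with 3.75 prior against 2 residual degrees of freedom. Its SEs and p-values therefore combine the spread between these samples with a spread shared across probe sets. Alternatives were 11 settings of scaling, filter, variance model, replicate block and leaving out each array.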

Additional observations from a re-analysis of the deposited data

How the results depend on the processing

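Under the changes of scaling and with 1 array left out, the NIBAN1 difference stayed between 4.08 and 4.30 log2 units. NIBAN1 ranked 1 under each of the 11 alternatives except without vehicle replicate 1, where it ranked 2. The settings of variance model, filter and replicate block cannot move a difference of group means, so they are no check on it. NIBAN2 stayed lower in the settings that could move it. It was at -0.42 with median centring, -0.29 under cyclic loess and between -0.40 and -0.33 when 1 array was left out. NIBAN3 turned to -0.16 without LY101-4B replicate 1, with a range up to 0.30 over the left-out arrays; its mean is below the median of the tested probe sets, so the filter on brighter ones gave no value. No member had another probe set to try. Over all rows 1162 probe sets were called higher and 1271 lower, with more rows to fit and adjust over. Leaving out 1 array gave 755 to 1899 higher and 811 to 2467 lower. The lowest were 755 and 855 without vehicle replicate 1, and 874 and 811 without vehicle replicate 2. The titles number the replicates 1 and 2 in both groups without saying that numbers pair samples. Deviations of same-numbered arrays correlated at r = 0.12 across probe sets, and with the replicate block 2024 were called higher and 2312 lower. Of 176 recomputed list counts, 32 moved by over 1.5 times, 17 of them when 1 array was left out; the cause was not tested. Counts of risers stayed between 9 and 10 in the eIF2alpha and ATF4 list, 11 and 14 in the IRE1 and ATF6 list, and 7 and 11 in the KEAP1 and NRF2 list. The arrays give no detection calls, which limits the dim values of NIBAN3 and of NIBAN1 in vehicle cells.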
